A study of Mus musculus with 2 samples.

Results

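The 426 chromatin loops described here were listed at exactly the same position in the uterus of CD-1 mice in estrus and in diestrus, and stood out more strongly above their local background in estrus. CD-1 is an outbred stock, and the mice were intact, untreated and 2 months old. Hi-C, in which neighbouring DNA segments are ligated and sequenced as pairs, was done on 1 library per stage from whole uterus, and the sources used here do not give the number of animals behind each. The estrus library had 24131 listed loops with 4153485 contacts at them, and the diestrus library had 26240 loops with 4533525 contacts. Of 16240 loops at identical anchor bins of 10 kb in both lists, 14292 lay off the X chromosome and held at least 50 contacts in each library. Loop strength was the number of observed contacts divided by the number the caller expected from a ring of surrounding bins, called the donut background. The estrus over diestrus ratio of strength, on the log2 scale, was centred on its median over these 14292 loops, which was 0.0128 before centring. The members were chosen by this ratio, at a threshold of 1.3-fold, so their strength ratios are descriptions and not findings. The same threshold was passed by 2.98% of the compared loops towards estrus and by 3.26%, or 466 loops, towards diestrus. With 1 library per stage no difference could be checked against replicates, so no test was made, and intervals (95%, exact conditional) cover counting error only, with the expected contacts taken as exact.

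A chromatin loop is a pair of distant sites that meet more often than the DNA around them. Many loops arise when the ring-shaped cohesin complex extrudes DNA until it meets CTCF bound in facing orientation, and such loops can bring enhancers within reach of promoters. The estrous cycle of the mouse alternates between estrus, which follows the preovulatory rise of estrogen, and diestrus, when progesterone from the corpora lutea prevails. The uterus responds with waves of growth and loss in its luminal and glandular epithelium, above a stroma of fibroblasts and layers of smooth muscle.

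Promoters of 5 genes at anchors of loops described below are shown as examples, and not as a sample of all such promoters. Most other promoters at anchors of named members, such as those of Hoxd13, Greb1, Msx1 and Inhbb, hold no match to the motifs below. Each runs from 250 bases before to 50 bases after a start site, 5′ to 3′ on the gene's strand, from RefSeq on GRCm38.p6, the assembly that mm10 names. Capitals mark matches to 3 motifs of 9 letters, searched on both strands. These were a core of the CTCF site (CCANNAGGG), the centre of the palindromic estrogen response element (TCANNNTGA) and the centre of the palindromic progesterone and glucocorticoid response element (ACANNNTGT). Slc6a19 (chr13:73692587-73692886, minus strand) lies at the loop of the telomerase gene Tert, and Rsad1 (chr11:94549158-94549457, minus strand) at that of Epn3. Both hold a CTCF core match, in Rsad1 as its reverse complement. The core is 1 fixed spelling, so CTCF sites spelled otherwise are not marked. In Rsad1, for example, the stretch ccaccaggt differs from the core in its last letter alone. Muc13 (chr16:33794239-33794538, plus strand) holds a match to the estrogen response element centre, and Foxa2 (chr2:148045415-148045714, minus strand) to the progesterone response element centre. The start sites shown for Muc13 and Foxa2 were picked for their match, and the other start sites of these genes in the anchors, 1 of Muc13 and 2 of Foxa2, have none. Sprr2f (chr3:92364937-92365236, plus strand) holds none of the 3 motifs.
Slc6a19: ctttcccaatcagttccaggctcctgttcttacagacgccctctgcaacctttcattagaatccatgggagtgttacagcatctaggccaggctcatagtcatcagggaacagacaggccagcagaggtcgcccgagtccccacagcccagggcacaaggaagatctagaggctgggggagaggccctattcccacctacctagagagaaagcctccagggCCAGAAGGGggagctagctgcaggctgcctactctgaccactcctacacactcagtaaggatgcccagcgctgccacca
Rsad1: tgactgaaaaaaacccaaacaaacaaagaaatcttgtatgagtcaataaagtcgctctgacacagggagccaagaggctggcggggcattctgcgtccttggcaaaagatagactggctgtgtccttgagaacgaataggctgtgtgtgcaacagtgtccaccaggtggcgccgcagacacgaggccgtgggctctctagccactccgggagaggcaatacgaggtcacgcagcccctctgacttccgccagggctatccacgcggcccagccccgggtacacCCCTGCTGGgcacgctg
Muc13: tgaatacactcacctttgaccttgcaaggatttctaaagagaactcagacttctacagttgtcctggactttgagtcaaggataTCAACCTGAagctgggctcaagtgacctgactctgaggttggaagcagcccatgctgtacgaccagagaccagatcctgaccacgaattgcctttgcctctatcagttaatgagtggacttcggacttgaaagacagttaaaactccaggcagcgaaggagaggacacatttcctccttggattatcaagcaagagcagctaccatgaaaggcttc
Foxa2: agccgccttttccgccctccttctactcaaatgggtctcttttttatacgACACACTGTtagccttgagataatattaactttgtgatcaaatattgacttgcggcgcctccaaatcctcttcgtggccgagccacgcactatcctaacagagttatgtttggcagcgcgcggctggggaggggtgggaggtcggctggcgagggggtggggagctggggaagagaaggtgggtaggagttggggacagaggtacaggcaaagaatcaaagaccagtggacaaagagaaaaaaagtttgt
Sprr2f: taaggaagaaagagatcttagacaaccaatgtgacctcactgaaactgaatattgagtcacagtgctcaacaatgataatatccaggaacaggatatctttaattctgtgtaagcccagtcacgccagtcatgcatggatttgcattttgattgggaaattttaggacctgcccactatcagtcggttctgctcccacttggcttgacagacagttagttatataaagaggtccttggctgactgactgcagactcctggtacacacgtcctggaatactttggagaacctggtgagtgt

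In all, 104 promoters of 92 genes lay in member anchors. The CTCF core was found in 14 of them, or 13.5%, against 7.45% of the 3785 promoters in anchors of all compared loops and 6.16% of the 20085 promoters of the table. The 14 belonged to Adra2a, Alcam, Basp1, Endov, Gm40415, Nabp1, Pla2g10, Rdh11, Rprm, Rsad1, Slc6a19, Sox6, Ttc24 and Umodl1. At anchors of the loops stronger in diestrus the core was in 10 of 153 promoters, or 6.54%. The estrogen response element centre was in 4 member promoters (3.85%), those of Gm38457, Lactbl1, Mfge8 and Muc13, against 4.94% at all compared loops, 3.92% at loops stronger in diestrus and 6.37% of the table. The progesterone and glucocorticoid element centre was in 3 (2.89%), against 4.60% at all compared loops, 2.61% at loops stronger in diestrus and 6.01% of the table. A match is a stretch of letters and not a bound site, and sites that differ from the fixed letters are not counted.

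Most members had more contacts in estrus as well as a higher strength. Of the 426 members, 411 had more contacts in estrus, 4 had equal numbers and 11 had fewer, whereas 38.7% of all compared loops had more in estrus. Together the members held 69137 contacts in estrus and 51174 in diestrus, a ratio of 1.35. Their donut backgrounds summed to 0.976 times as many expected contacts in estrus as in diestrus. The median member had 1.31 times as many contacts in estrus, while the median of all compared loops was 0.959. After centring on that median, 279 members reached 1.3-fold on contacts alone, as did 5.62% of all compared loops. The interval of the contact ratio lay above 1 in 220 members (6.51% of all compared loops), and the interval of the strength ratio lay above 1 in 312 (5.38%). The contacts are part of the strength that chose the members, so these counts say which term of the ratio differed and are no independent support.

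**Figure D1:**
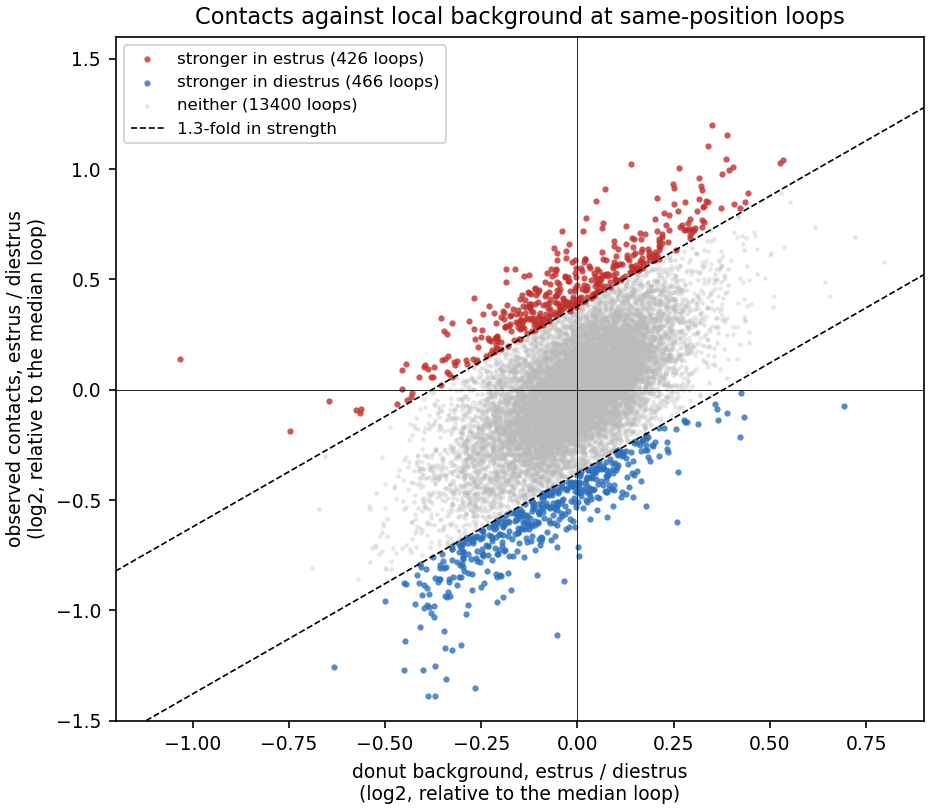
Each point is 1 of the 14292 compared loops. The horizontal axis is the log2 ratio of donut background and the vertical axis that of observed contacts, both estrus over diestrus and relative to the median loop, and the dashed lines mark a 1.3-fold difference in strength. The 426 loops stronger in estrus (red) spread over both sides of 0 on the background axis, with 235 below it and 191 above, and 417 of them lie above 0 on the contacts axis.

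The centred background of the members had a median log2 ratio of -0.02, with 235 lower and 191 higher in estrus. The contact term was larger than the background term in 374 members, and in the other 52 the background contributed at least as much. The 15 members without more contacts all had lower donut backgrounds in estrus, as the threshold requires where contacts do not rise. One of these loops joins Snai2, which encodes an epithelial-mesenchymal transition factor, to Cebpd and Spidr over 1180 kb. It had 91 contacts in estrus and 102 in diestrus, on a background of 17.8 expected contacts in estrus and 27.7 in diestrus. The caller also gives backgrounds from the bottom-left corner, the row and the column of each loop. The 1.3-fold threshold was passed by 330 of the 425 members with a defined bottom-left background, by 296 with the horizontal and by 284 with the vertical one, and by 184 with all 4 (1.29% of all compared loops). All but 1 member kept a ratio above 0 on each background that was defined. The exception had the largest ratio of the set. This loop of 50 kb (chr8:29610001-29670000) lies in a gene desert 390.3 kb from Unc5d, a netrin receptor gene. It held 205 contacts in estrus and 194 in diestrus, and its donut background was 23.0 expected contacts in estrus and 49.5 in diestrus, which gave 2.25-fold. On the horizontal background its centred log2 ratio was -0.00014, and its bottom-left background in estrus was listed at 0, so its place at the top rests on the donut and vertical backgrounds.

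Member strength ratios ran from 1.3001 to 2.25-fold with a median of 1.37-fold, and 51 members reached 1.5-fold. Just inside the threshold lay the loop at Arhgap21, a GTPase activator gene, at 1.3009-fold, and 2 loops at 1.3004 and 1.3001-fold. Just outside lay 3 loops at 1.2999, 1.2998 and 1.2997-fold, the last at the exonuclease gene Eri1. A member held a median of 128.5 contacts in estrus (51 to 601) and 95.5 in diestrus (50 to 436), against 172 in estrus and 181 in diestrus over all compared loops. Their median strength was 4.66 times background in estrus and 3.30 in diestrus, while over all compared loops it was 3.86 in estrus and 3.81 in diestrus. The caller merged more enriched pixels into the loop in estrus for 234 members, fewer for 73 and the same number for 119, against 4714, 4606 and 4972 of all compared loops. For the loops stronger in diestrus these counts were 79, 237 and 150. Enrichment over background also chose the members, so these counts are not independent of the rule.

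Members were frequent where contacts were few. They made up 6.81% of loops with 50 to under 75 contacts in the library with fewer, 3.29% of those with 100 to under 150 and 0.598% of those with at least 250. The loops stronger in diestrus followed the same course, with 6.75%, 4.33% and 0.741% in these classes. Counting error is larger where contacts are few, and its part in these shares was not tested. Members were also long, with a median of 280 kb (50 to 8430 kb) against 210 kb over all compared loops and 290 kb in the loops stronger in diestrus. Their share was 1.90% up to 100 kb, 3.02% between 200 and 400 kb and 5.70% over 800 kb. By chromosome the share was 4.55% on chromosome 3, with 39 members beside 36 loops stronger in diestrus (4.20%). On chromosome 17 it was 4.06%, with 23 members beside 10 loops stronger in diestrus. On chromosome 15 it was 1.84%, with 11 members beside 27 loops stronger in diestrus.

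**Figure D2:**
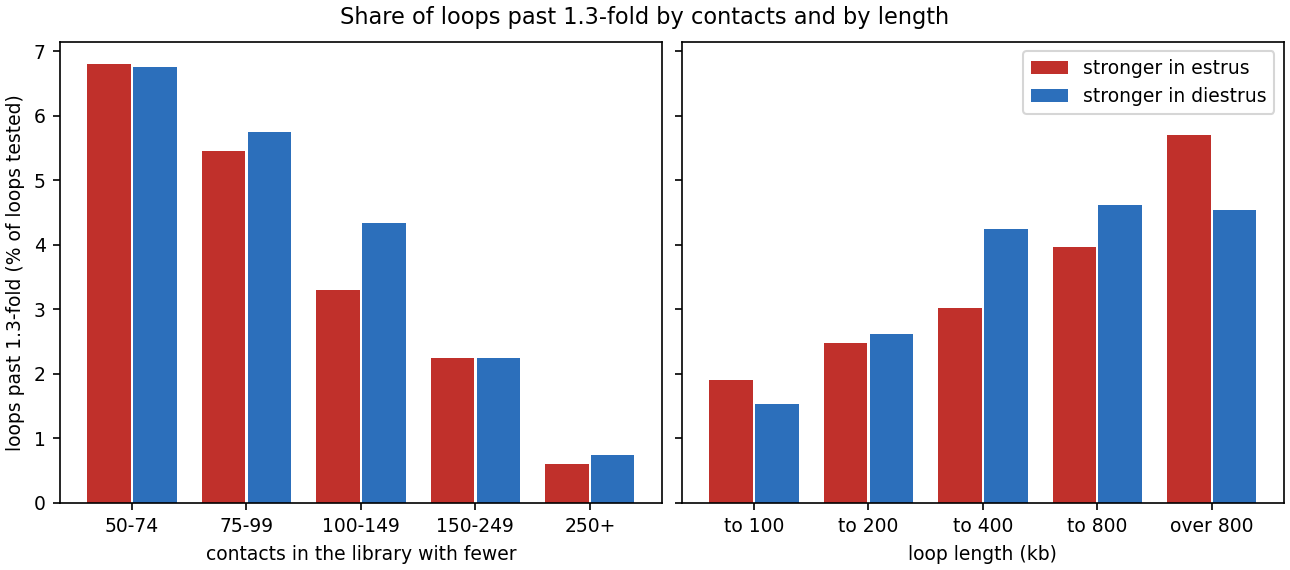
The bars give the percentage of compared loops past 1.3-fold towards estrus (red) and towards diestrus (blue), by the contacts in the library with fewer (left) and by loop length (right). Both shares are highest, at 6.81% and 6.75%, for loops with 50 to under 75 contacts, and the share stronger in estrus climbs with length to 5.70% over 800 kb.

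Gene ends were fewer at member anchors than over all compared loops. An end of a protein-coding gene lay in at least 1 anchor of 160 members (37.6%) and in both anchors of 21 (4.93%), against 48.0% and 9.82% of all compared loops. Compared loops of the same length and contacts gave 43.5% and 8.68%. A start site lay in an anchor of 19.95% of members, against 26.2% at the same length and contacts. No gene of any kind ended in either anchor of 44.8% of members, against 38.7% at the same length and contacts, and 46 members (10.8%) touched no protein-coding gene at all, against 6.59% of all compared loops and 8.13% at the same length and contacts. The loops stronger in diestrus were at 41.0% with a gene end and 18.7% without any protein-coding gene. Gene ends in both anchors were about as rare there, at 4.94% against 8.46% at the same length and contacts. A start site lay in an anchor of 26.0% of them, against 26.4%. The miRNA hairpins Mir129-1 and Mir6413 lay in member anchors. The 213 protein-coding genes at member anchors and the 227 at loops stronger in diestrus had 18 genes in common, 8.45% and 7.93% of the lists. Of the 5715 genes at all compared loops, 3.97% lay at a loop stronger in diestrus, but genes differ in how many loops they have.

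Among transcription factor genes, Sox9, which encodes a factor of glandular epithelium, had the largest ratio of any member with a protein-coding gene at an anchor. Its loop spans 190 kb of the desert beside Sox9 (chr11:112780001-112980000) and held 191 contacts in estrus and 98 in diestrus, on backgrounds of 40.9 expected contacts in estrus and 39.1 in diestrus. The strength ratio was 1.85-fold (1.44 to 2.38). The other compared loop of Sox9, over 380 kb from the same anchor, held 127 contacts in estrus and 114 in diestrus and lay just under the threshold at a log2 ratio of 0.377. Foxa2, required for uterine glands to form, had a member of 200 kb (chr2:147840001-148050000) with 232 contacts in estrus and 135 in diestrus, at 1.35-fold (1.09 to 1.68). Msx1, a homeobox gene needed for a receptive uterus, had 422 contacts in estrus and 322 in diestrus over 260 kb. Hoxa13 and Hoxd13, homeobox genes of the caudal reproductive tract, each had 1 member. That of Hoxa13 spans 660 kb with 176 contacts in estrus and 127 in diestrus, and that of Hoxd13 and Evx2 spans 700 kb with 155 in estrus and 129 in diestrus. The Msx1, Hoxa13 and Foxa2 loops had contact ratios with intervals above 1, and the interval of the Hoxd13 loop, 0.945 to 1.53, included 1.

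Osr1, an odd-skipped zinc finger gene, and Snai2 had loops that differed in opposite directions from the same anchor. For Osr1 the member of 860 kb held 221 contacts in estrus and 197 in diestrus, while a loop of 420 kb held 121 in estrus and 240 in diestrus. For Snai2 the member of 1180 kb had nearly equal contacts, as above, while a loop of 490 kb held 90 in estrus and 211 in diestrus. Among signalling genes, Rspo3, which encodes an enhancer of Wnt signals, showed the same arrangement. Its member of 1050 kb held 90 contacts in estrus and 80 in diestrus, and its loop of 470 kb held 142 in estrus and 266 in diestrus. In these 3 genes the member was longer than the loop stronger in diestrus, but other long loops from the same anchors passed the threshold in neither direction. Their log2 ratios were 0.12 at Osr1 (960 kb), -0.25 at Rspo3 (1000 kb) and -0.25 at Snai2 (930 kb). Over all compared loops of a gene the median was 0.12 for Osr1 (7 loops), -0.06 for Rspo3 (9) and -0.17 for Snai2 (9). Over all members, 57 pairs joined a member to a loop stronger in diestrus through a shared anchor bin, and the member was the longer one in 34, or 59.6%. The member was the longer one in 58.4% of the 1085 pairs with any loop that was no member. The pairs were examined after their values were seen.

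The other members at signalling genes lay at Acvr2a and Inhbb. Acvr2a, an activin receptor gene, had 138 contacts in estrus and 104 in diestrus over 370 kb, and Inhbb, which encodes the beta B subunit of activin and inhibin, had 151 in estrus and 110 in diestrus over 170 kb. Both strength ratios were close to the threshold, at 1.36-fold (1.05 to 1.77) for Acvr2a and 1.31-fold (1.02 to 1.69) for Inhbb. Of genes tied to hormone response, Greb1, an early target of estrogen receptor alpha, had 105 contacts in estrus and 94 in diestrus over 450 kb, on a background of 14.7 expected contacts in estrus and 18.1 in diestrus. The other 3 compared loops of Greb1 were below the median, down to a log2 ratio of -0.21. The orphan receptor gene Esrra was joined to the co-chaperone gene Stip1 over 100 kb, with 244 contacts in estrus and 184 in diestrus. The retinoic acid receptor gene Rarb, which shares its anchor with Top2b, had 97 in estrus and 79 in diestrus over 580 kb. Acta2, the gene of smooth muscle actin, had 226 contacts in estrus and 178 in diestrus over 90 kb.

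**Figure D3:**
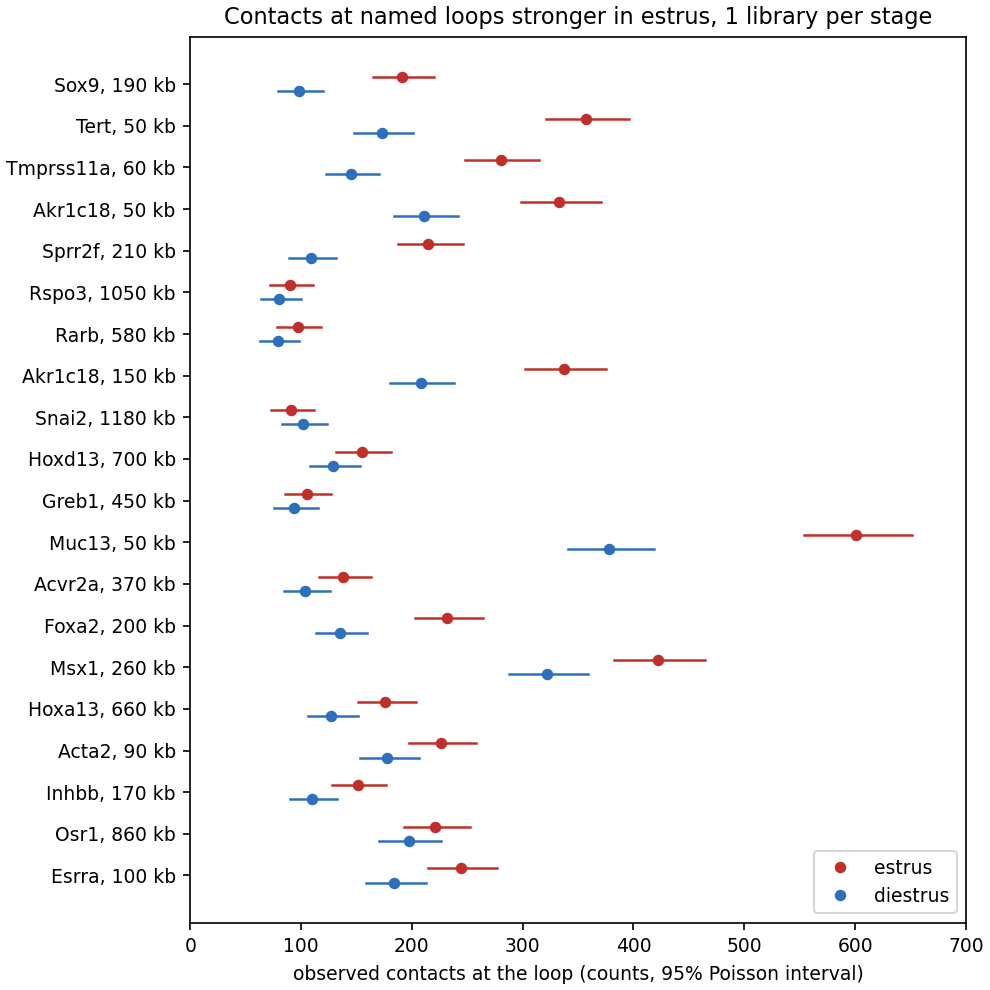
Points are observed contacts (counts) at member loops of genes on the lists and of Tert, Tmprss11a, Muc13 and Akr1c18, in estrus (red, upper) and diestrus (blue, lower), with exact Poisson intervals at 95% and loop length in kb. The Tert loop holds 357 contacts in estrus and 173 in diestrus, whereas the intervals overlap between the stages in 10 of the 20 loops, those of Acta2, Acvr2a, Greb1, Hoxa13, Hoxd13, Inhbb, Osr1, Rarb, Rspo3 and Snai2.

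Across the 9 gene lists and 5 sets of cell class markers, 597 compared loops had a gene end in an anchor. Of these, 15 were members (2.51%) and 38 were stronger in diestrus (6.37%), beside 2.98% and 3.26% over all compared loops. The median log2 strength ratio of the 597 loops was -0.04. Patterning transcription factors had 6 members and 14 loops stronger in diestrus of 134. Signalling genes had 3 members and 8 loops stronger in diestrus of 121, and progesterone-responsive genes 1 member and 4 loops stronger in diestrus of 49. Estrogen-responsive genes had 3 of each among 66, and nuclear receptors and their coregulators 2 of each among 50. No member lay at a gene on the lists of extracellular matrix (74 loops), cell cycle and immediate early (55), angiogenesis and hypoxia (45) or loop and insulator protein genes (6). Genes of several lists count in each.

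Loops at markers of cell classes differed in their local background. All 5 compared loops at epithelial markers had a higher background in estrus than the median loop, with a median centred log2 ratio of 0.38. They held 1173 contacts in estrus and 870 in diestrus in all, and 2 of the 5, at Sprr2f and Foxa2, were members. The other 3 lay at Klf5, Elf3 and Foxa2, and 10 of the 14 epithelial markers had no compared loop at an anchor. On strength, 3 of the 5 loops were above the median loop and 2, those at Klf5 and Elf3, were below it. Their median log2 strength ratio was 0.089. Of 32 loops at stromal markers, 30 had a lower background in estrus than the median loop, at a median of -0.19, and their contacts summed to 7536 in estrus and 9496 in diestrus. None of the 32 was a member and 2 were stronger in diestrus. On the gene lists, 117 of 134 loops at patterning transcription factors also had a lower background than the median loop, at a median of -0.24. So did 63 of 74 at extracellular matrix genes, at a median of -0.19. Both lists share genes with the stromal markers, so some loops, such as a loop at Col3a1, are counted in both. Smooth muscle markers had 1 member of 24 loops and a median background of -0.10, while endothelial and immune markers had no member among 5 loops each and medians of 0.008 and 0.012. These are contacts and not expression, so the cell makeup of the libraries could not be checked from marker RNA. In whole tissue, a change in the share of a cell type and a change in contacts per cell cannot be told apart, and their part in the members was not tested.

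**Figure D4:**
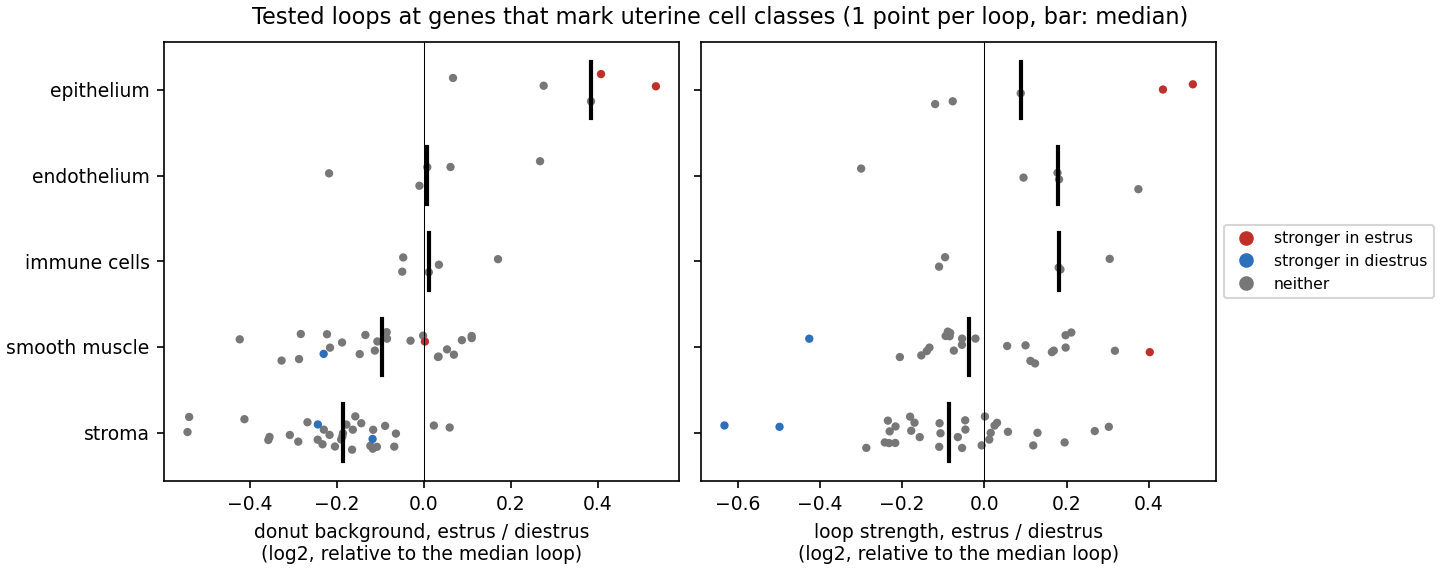
Each point is a compared loop with the end of a marker gene in an anchor, and the black bar is the median of the class. The left panel gives the log2 ratio of donut background and the right panel that of loop strength, both estrus over diestrus and relative to the median loop. All 5 epithelial loops lie above 0 on background and 30 of 32 stromal loops below it, while on strength the classes overlap.

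At some members the whole neighbourhood was denser in estrus. All 4 backgrounds were above the median loop in 147 members (34.5%, against 31.0% of all compared loops and 14.8% of those stronger in diestrus). All 4 were at least 1.2-fold above it in 26 members (6.10%), against 1.31% of all compared loops and 4 of the 466 stronger in diestrus. In the other direction, all 4 were below the median in 131 members (30.8%, against 31.2% of all compared loops), and at least 1.2-fold below it in 16 (3.76%, against 2.32%). The limit of 1.2-fold and the genes named here were picked with their values in view. Of these 26 loops, the largest donut background ratio was at Sprr2f, one of the small proline-rich proteins that estrogen induces in uterine epithelium. Its loop of 210 kb (chr3:92150001-92370000) covers 7 genes of the Sprr2 family and held 215 contacts in estrus and 109 in diestrus, on a background of 39.4 expected contacts in estrus and 28.6 in diestrus. The adjoining loop over Sprr2i, Sprr2k, Sprr1a, Sprr1b, Sprr3 and Sprr4, genes of the cornified envelope, held 260 in estrus and 133 in diestrus. The loop at Muc13, which encodes a membrane mucin, had the most contacts of any member in estrus, with 601 in estrus and 378 in diestrus, on a background of 148.8 expected contacts in estrus and 128.4 in diestrus. The same group held loops over the serine protease gene Tmprss11a (280 in estrus, 145 in diestrus), the chloride current regulators Clca1 and Clca2 (270 in estrus, 141 in diestrus), and Epgn, Ereg and Areg, ligands of the epidermal growth factor receptor (349 in estrus, 201 in diestrus). It also held Tert, the catalytic subunit gene of telomerase, with 357 contacts in estrus and 173 in diestrus over 50 kb (chr13:73640001-73700000), at 1.70-fold (1.41 to 2.05). All 4 compared loops of Tert were above the median, the other 3 by less than the threshold. The genes named here are a part of the 26 loops. Some of the 26 touched no protein-coding gene, such as chr9:30000001-30140000 (417 in estrus, 248 in diestrus). Further ones lay over a cluster with olfactory receptor genes (203 in estrus, 127 in diestrus), over Hivep3 (184 in estrus, 108 in diestrus) and over Pcsk1 (202 in estrus, 107 in diestrus).

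The member with the largest contact ratio of the 10 leading ones lies over Cpb1, a carboxypeptidase gene, and Agtr1b, an angiotensin receptor gene. It held 253 contacts in estrus and 115 in diestrus, a ratio of 2.20 (1.76 to 2.77). Next in strength came a loop of 1010 kb in the desert between Ttll7 and Adgrl2 (119 in estrus, 66 in diestrus), 1 over Dnah14 and the lamin B receptor gene Lbr (137 in estrus, 79 in diestrus) and 1 over the ephrin gene Efnb2 (126 in estrus, 59 in diestrus). The last of the 10 were loops between Scp2d1 and Slc24a3 (90 in estrus, 57 in diestrus), over a cluster of 7 vomeronasal receptor genes (102 in estrus, 62 in diestrus) and over Nbea, Dclk1 and Mab21l1 (104 in estrus, 54 in diestrus, over 1710 kb). Of these 10 loops, 8 had no protein-coding gene ending at an anchor, and the contact intervals of 9 lay above 1. Among members with at least 100 contacts in both libraries and a gene end in an anchor, Tert was followed by Srsf12, a splicing regulator gene (212 in estrus and 131 in diestrus). Further down this order were Brf1, of the RNA polymerase III machinery, joined to Pacs2 and Tex22 (188 in estrus, 144 in diestrus), the actin-associated genes Myoz3 and Synpo (136 in estrus, 101 in diestrus), and Smoc1, of the extracellular matrix (350 in estrus, 280 in diestrus). Basp1 (205 in estrus, 143 in diestrus), Fam241b (159 in estrus, 116 in diestrus) and the complement protease gene Masp1 (130 in estrus, 105 in diestrus) closed it.

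The members with the most contacts differed less in strength. Beside Muc13 these were a loop of 160 kb over the Wnt antagonist gene Sfrp1, with 559 contacts in estrus and 436 in diestrus, the most of any member in diestrus, and 1 at the histone demethylase gene Phf2, with 505 in estrus and 395 in diestrus. The others lay over Por, the reductase gene of microsomal cytochrome P450 enzymes (491 in estrus and 342 in diestrus), at the endocytic adaptor gene Epn3 (484 in estrus, 332 in diestrus), between Purb and Myo1g (460 in estrus, 368 in diestrus), at the tight junction gene Cldn11 (434 in estrus, 367 in diestrus) and over Synpo2 and Sec24d (415 in estrus, 393 in diestrus). Their strength ratios ran from 1.32 to 1.42-fold. The interval of the contact ratio lay above 1 in 7 of the 8, and that over Synpo2 and Sec24d, 0.918 to 1.22, included 1. Here the background was 79.1 expected contacts in estrus and 100.5 in diestrus.

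Most members shared no anchor bin with another member, although 88.7% of them shared one with some other compared loop, against 87.1% of all compared loops. Joined through shared anchor bins, 372 members formed no group, 46 formed 23 pairs and 8 formed 2 groups of 4. Thus 54 of 426 members were in groups, against 114 of 466 loops stronger in diestrus, whose largest group had 7. Of the groups of 4, the first lay in the Akr1c cluster on chromosome 13 (chr13:4010001-4290000), a family of aldo-keto reductase genes that includes Akr1c18, whose enzyme inactivates progesterone. The loop of 50 kb at Akr1c18 held 333 contacts in estrus and 211 in diestrus, and the loop of 150 kb from the same anchor 337 in estrus and 208 in diestrus. The loop of 100 kb over Akr1c13, Akr1c19 and Akr1c12 held 270 in estrus and 157 in diestrus, and that of 170 kb over Akr1c14 and Akr1c18 held 95 in estrus and 68 in diestrus. Strength ratios were 1.38 to 1.51-fold, and all 4 contact intervals lay above 1. The loop that spans the whole cluster, of 270 kb, held 139 contacts in estrus and 144 in diestrus, and that of 50 kb at the upstream end held 103 in estrus and 98 in diestrus. Both compared loops of Akr1c18 were thus members, and the outer frame of the cluster was at the median.

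The second group of 4 lay around Meis2, a homeobox gene, and the gene-poor stretch beside it (chr2:114850001-116110000). Of its loops, 2 span Meis2 and BC052040, 1 spans BC052040 alone and ends just short of Meis2, and 1 touches no protein-coding gene. Its loops held few contacts, with 133 in estrus and 95 in diestrus, 124 in estrus and 110 in diestrus, 63 in estrus and 54 in diestrus, and 56 in estrus and 59 in diestrus. The contact interval lay above 1 for the first alone, at 1.07 to 1.84. Their donut backgrounds were all lower in estrus, at 12.4 to 19.6 expected contacts against 16.6 to 22.9 in diestrus. A loop of 590 kb from a shared anchor was stronger in diestrus, with 66 contacts in estrus and 102 in diestrus. Contact ratios of these 4 loops ran from 0.949 to 1.40, against 1.40 to 1.72 in the Akr1c group, where 3 of the 4 donut backgrounds were higher in estrus.

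**Figure D5:**
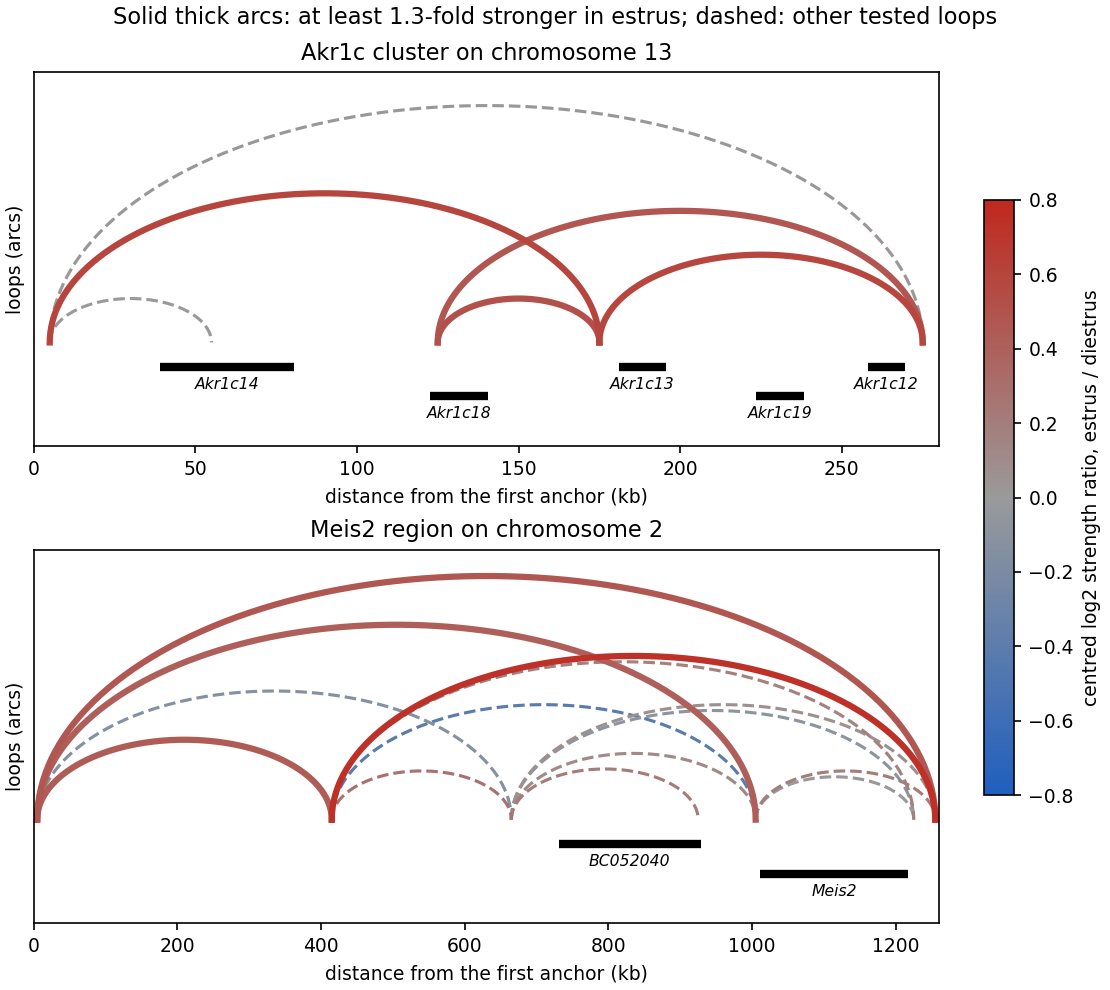
Arcs are compared loops inside the Akr1c cluster (top) and the Meis2 region (bottom), drawn by distance in kb from the first anchor and coloured by the centred log2 strength ratio, estrus over diestrus, with protein-coding genes as black bars. The 4 members of each region are solid and thick. The outer loop of the Akr1c cluster, with 139 contacts in estrus and 144 in diestrus, is near 0.

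The pairs with most contacts were at Epn3 (484 contacts in estrus and 332 in diestrus, and 195 in estrus and 145 in diestrus for a longer loop that spans Epn3) and at Phf2 (505 in estrus and 395 in diestrus, and 118 in estrus and 99 in diestrus). Both places also had a loop stronger in diestrus. At Epn3 it spans 250 kb with 67 contacts in estrus and 116 in diestrus, and at the shared anchor of the Phf2 pair it spans 340 kb with 138 in estrus and 206 in diestrus. Besides Akr1c18, the genes with 2 members were Cyp4f39, of fatty acid hydroxylation (2 of 4 compared loops), Umodl1 (2 of 6) and the mitochondrial ribosomal gene Mrpl44 (2 of 3, with the third stronger in diestrus).

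Another compared loop used an anchor bin of 378 members. Of these 1009 distinct neighbours that were not members 510, or 50.5%, had a ratio above 0, with a median log2 ratio of 0.0023. Leaving out the members in the same way, 48.2% of all compared loops with a neighbour were above 0, with a median of -0.0082. The next counts include neighbours that are members, which occur at 54 members and are above 0 by the rule. Neighbours were all above 0 at 109 members (25.6%, against 20.4% of all compared loops) and all below 0 at 78 (18.3%, against 19.9%). A neighbour stronger in diestrus was found at 48 members (11.3%, against 9.54%). These ratios come from the same contrast as the choice of members and share anchors with them. Loops without a counterpart in the other list were found at member anchors in both stages. There, 345 of 2059 estrus loops (16.8%) had no diestrus loop within 10 kb at both anchors, and 376 of 2101 diestrus loops (17.9%) had no such estrus loop. At the anchors of all compared loops these shares were 17.8% of estrus loops and 22.8% of diestrus loops, and at those of loops stronger in diestrus 15.6% and 28.9%.

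In windows of 1 Mb, a size chosen after the values were seen, 8 of 2037 windows with a compared loop held 3 or more members. As many loops stronger in diestrus were held by 20 windows. The window at 4 Mb of chromosome 13, with the Akr1c cluster, held 6 members of 18 compared loops, and 15 of the 18 had a background above the median. On strength, 9 of the 18 were above the median loop and 9 below, with a median log2 ratio of 0.0089. Besides the group in the Akr1c cluster, the members were chr13:4770001-5440000 and chr13:4770001-5720000. The window at 92 Mb of chromosome 3, with the Sprr and Lce genes of the cornified envelope, held 3 of 7, all 7 with a background above the median, and 1673 contacts in estrus against 1259 in diestrus. At 86 Mb of chromosome 5, with Gnrhr, Tmprss11 and Ugt2b genes, 3 of 9 were members, all 9 backgrounds were above the median and contacts summed to 1930 in estrus and 1474 in diestrus. In this window Gnrhr, the receptor gene of gonadotropin-releasing hormone, anchored a member with 190 contacts in estrus and 112 in diestrus and a second loop, with 413 in estrus and 377 in diestrus, that lay at the median of strength. A loop of 450 kb at Ugt2a3 in the same window was stronger in diestrus, with 62 contacts in estrus and 71 in diestrus. The window at 32 Mb of chromosome 17, with Cyp4f genes, also had 3 members of 13, but 5 of 13 backgrounds were above the median and contacts summed to 1863 in estrus and 1769 in diestrus. At 114 Mb of chromosome 2, with 3 members of 7, the median centred log2 background was -0.23, with 512 contacts in estrus and 541 in diestrus. In the remaining windows this median was 0.018 and 0.051 (145 and 146 Mb of chromosome 3) and -0.045 (119 Mb of chromosome 8).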

How the data were processed

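Hi-C libraries of mouse uterus, 1 in estrus and 1 in diestrus, were made with a kit for Hi-C from Arima, per the labels. Per the submitters' processing notes, Juicer and mm10 were used, while the sources used here name no aligner, version or caller setting. The deposited lists carry HiCCUPS columns, per the file headers. Observed contacts and merged pixels are raw counts of the authors. The 4 expected values are a signal of the authors' caller on the scale of raw contacts. The deposited q-values reached at most 0.0991 in estrus and 0.0955 in diestrus. Anchor positions (other: bases) are as deposited, given 1-based. Loops not listed are not analysed here.

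Each library took its stage from its label. Members followed the rule in the opening, and 1 ratio with an expected value of 0 was left undefined. Genes came from a RefSeq table of GRCm38.p6 (21631 protein-coding genes on the chromosomes with loops) by a gene end inside a 10 kb anchor. The 9 gene lists and 5 marker sets hold 392 symbols, all matched. Members and lists were chosen with earlier results of these data known. Shares at the same length and contacts weight all compared loops by the members' classes. Loops were named as the 10 with the largest ratio, the 8 with most contacts, the 10 with the largest ratio among those with at least 100 contacts in both libraries and a gene end in an anchor, up to 15 at list genes, the 4 largest groups, and 3 on each side of the threshold; 1 loop so chosen is not reported here. Other loops named were chosen after their values were seen. Contact ratios have exact conditional intervals and contacts exact Poisson intervals at 95%. Read pairs that lack molecular identifiers need not be independent molecules. Scripts used Python 3.11.15, numpy 2.4.6, pandas 2.3.3, scipy 1.17.1 and matplotlib 3.10.9 and were tested on simulated data. Alternatives covered the background, centring, minimum contacts, q-value, X chromosome, fold, matching and gene assignment.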

Additional observations from a re-analysis of the deposited data

How the results depend on the processing

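The number of members was 426, and it depended on the thresholds and on the matching of positions. It was 198 with at least 100 contacts, 1234 at 1.2-fold, 51 at 1.5-fold and 722 with mutually nearest loops within 1 bin. In settings chosen after seeing the data it was 279 with contacts also 1.3-fold higher and 184 with all 4 backgrounds. In the other settings it was 392 to 581, and these sets held between 284 and 426 of the members. Members with more contacts in estrus numbered 193 of 198 with at least 100 contacts. The median log2 ratio of contacts, 0.39 as reported, was 0.319 with the bottom-left background, 0.302 with the horizontal, 0.301 with the vertical, 0.319 with the largest of the 4 and 0.445 with at least 100 contacts. Members with a protein-coding gene in an anchor numbered 160 by gene ends, 218 by ends within 5 kb and 318 by any base of the gene. Of 571 values for 54 named loops, 568 kept their direction within counting error. Settings that kept the donut background left the contacts and background of a loop unchanged and altered at most the centring. They could therefore hardly change its ratio, and all exceptions came from settings that changed the background. The loop near Unc5d was reversed by the horizontal background, at -0.00014, where its expected contacts differ from those of the donut. The Cldn11 loop moved to 0.16 with the bottom-left background and 0.17 with the largest of the 4. No paired analysis was possible because each stage has 1 library. Depth limits the members most below 100 contacts, where 226 of them lie, and no setting can show the spread between animals.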
